A study of Homo sapiens with 6 samples.

Results

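The DNA replication genes described here are 44 genes of 36601 in the deposited count tables. They were picked by symbol from the known parts of the replication machinery and not by their values, although earlier results of these data were known. They fall into 17 licensing and helicase genes, 17 clamp, fork and repair genes, 4 polymerase and primase genes and 6 genes of chromatin assembly and histone supply. Their RNA was counted in single SK-N-BE(2)-C cells, which come from a long-established neuroblastoma culture of human origin, with the Seq-Well S3 platform, which catches the RNA of single cells in microwells and tags each captured molecule with a unique molecular identifier (UMI). The cells had been given the solvent DMSO as control, TSA or E6R. TSA commonly stands for trichostatin A, an inhibitor of the histone deacetylase (HDAC) enzymes, and E6R is a code name. The series counts both among HDAC inhibitors, and its title names an inhibitor that acts on an HDAC complex in a non-enzymatic way. Each of the 3 groups has 2 libraries, with replicate numbers 1 and 2, and all 6 come from the same line with no genetic change named. The sources used here give no doses or exposure times, and nothing says that the replicates were separate cultures, so the p-values measure the spread between these libraries, which may be technical.

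Eukaryotic cells load the MCM2-7 helicase onto origins in G1 with the help of the origin recognition complex, CDC6 and CDT1, and geminin (GMNN) blocks further loading once S phase has begun. CDC45 and the GINS complex then turn the loaded helicase on, and the polymerases, the PCNA clamp with its RFC loader and the single-strand binding protein RPA work at the fork behind it, while CAF-1 and other chaperones put histones onto the new DNA. Most of these genes are E2F targets and are transcribed mainly around the G1/S boundary, and in MYCN-driven neuroblastoma they are commonly expressed at a high level.

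The 6 libraries held 17589 cells with at least 500 genes and at most 20% mitochondrial UMIs, between 1861 and 3946 per library, and 4206366 to 26180262 UMIs in those cells. The DMSO libraries were the shallowest. Mitochondrial genes took 1.55% and 1.51% of UMIs in the E6R libraries and 5.83% to 9.71% in the other 4 libraries. The top 1% of cells by UMIs carried 22.9% of the UMIs of E6R replicate 2 and at most 15.6% in any other library. Some kept cells had a barcode that was also seen in another library, and these cells carried 8.34% to 51.1% of a library's UMIs. Levels are CPM, a gene's UMIs as parts of a fixed common total per library, after TMM scaling, which lines up the bulk of genes between libraries. The noradrenergic neuroblastoma markers HAND2 and GATA3 were detected in every library, and the 4 blood cell genes were at or below 2.3 CPM. Of 5 fibroblast genes checked, DCN was at 56.9, 63.0 and 165 CPM in the replicate 1 libraries of DMSO, TSA and E6R and at 1.91, 29 and 1.92 in the replicate 2 libraries. COL3A1 and LUM were also higher in replicate 1 of each group, COL1A1 was at 24.4 and 5.93 in DMSO, 42.9 and 38.6 in TSA, and 40.4 and 5.79 in E6R, and COL1A2 was at or below 5.36 in every library. The part of these genes in any result was not tested. The deposited name of TSA replicate 2 carries a tag that the other 5 lack, whose part in any result was not tested.

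Promoter letters were read first, because these genes are commonly described as E2F targets. RefSeq promoters (GRCh38.p14, 250 bases before to 50 after each start) were found for 39 of the 44 genes, with none for MCM4, MCM5, GINS4, RPA2 and RPA3. An exact match on either strand to one of 4 E2F-like words, TTTCCCGC, TTTGGCGC, TTTCGCGC or TTTGCCGC, was present in 22 of the 39 genes (56.4%), against 3.99% of all 27305 genes with a promoter of that length. TTTGGCGC and TTTCGCGC can overlap on opposite strands. By role, the words stood in 10 of 14 licensing and helicase genes, 8 of 15 clamp, fork and repair genes, 2 of 4 polymerase and primase genes and 2 of 6 chromatin genes. CCAAT stood in 26 of the 39 genes (66.7%, against 39.7% of all genes), and the cell cycle homology region words TTTGAA and TTCGAA, which are typical of mitotic genes, in 3 (7.69%, against 19.5%). The 150 bases before the start are shown for 2 genes that were higher under E6R than under TSA (MCM6 and HELLS) and 2 that were higher under TSA than under DMSO (GMNN, at the second of its 2 entries, and POLA1), with complete E2F-like words in capitals, 5′ to 3′ on the gene's strand.
MCM6 (chr2:135876444-135876593, minus strand): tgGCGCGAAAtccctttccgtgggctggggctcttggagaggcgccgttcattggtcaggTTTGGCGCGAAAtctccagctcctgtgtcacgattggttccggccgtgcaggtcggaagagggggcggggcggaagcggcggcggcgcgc
HELLS (chr10:94545638-94545787, plus strand): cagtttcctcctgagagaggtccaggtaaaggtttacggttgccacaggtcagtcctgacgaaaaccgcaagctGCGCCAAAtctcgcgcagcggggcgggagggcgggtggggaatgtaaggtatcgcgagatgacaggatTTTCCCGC
GMNN (chr6:24775263-24775412, plus strand): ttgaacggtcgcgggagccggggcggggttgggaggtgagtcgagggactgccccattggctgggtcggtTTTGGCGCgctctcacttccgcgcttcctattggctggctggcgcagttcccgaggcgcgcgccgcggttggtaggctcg
POLA1 (chrX:24693768-24693917, plus strand): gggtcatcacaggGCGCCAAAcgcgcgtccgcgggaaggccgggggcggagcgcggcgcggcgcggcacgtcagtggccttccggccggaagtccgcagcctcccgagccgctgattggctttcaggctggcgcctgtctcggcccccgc
The same kind of word was therefore found in promoters of genes called in different comparisons. GMNN and POLA1 themselves did not pass for E6R against TSA (edgeR log2 fold changes -0.31 and -0.41, adjusted p = 0.313 and 0.156). Of the genes called higher under TSA than under DMSO that have a promoter entry, 6 of 12 held an E2F-like word, and of those called higher under E6R than under TSA, 10 of 12 did. These are matches of letters in a window, not measured binding.

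Under TSA the replication genes split. Compared with DMSO, 15 of the 44 rose and 2 fell (edgeR quasi-likelihood test, Benjamini-Hochberg adjusted p under 0.05, over all 16763 genes tested). The genes that rose were CDC6, GMNN, MCM10, GINS4, RFC5, LIG1, RPA1, RPA2, RPA3, TIPIN, DTL, BLM, BRIP1, POLA1 and SLBP, and the 2 that fell were GINS3 and UNG. All 44 passed the low-count filter. Over all genes tested, TSA called 16.2% higher and 13.5% lower than DMSO, and among 9472 genes averaging 10 CPM or more, as all 44 do, 20.5% higher and 18.1% lower. The share of replication genes called in either direction is thus near the background of genes at that level, and the direction differs from it, with 34.1% called higher and 4.55% called lower. That direction depends on the scaling: with library totals in place of TMM, which puts the median of all genes at -0.32 instead of -0.01 on the log2 scale, 6 rose and 5 fell. Leaving out 1 library at a time kept CDC6, GINS4 and RPA3 in every one of the 6 fits. Leaving out either DMSO or either TSA library gave fewer calls, each with a lone sample assumed to vary like the other groups. The share of all genes called in those fits is not given here, so the loss was not set against a background. The median log2 fold change of the 44 was 0.56 and 0.31 without DMSO replicates 1 and 2. It was 0.58 and 0.46 without TSA replicates 1 and 2. None of the 17 called genes changed sign in these fits.

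**Figure D1:**
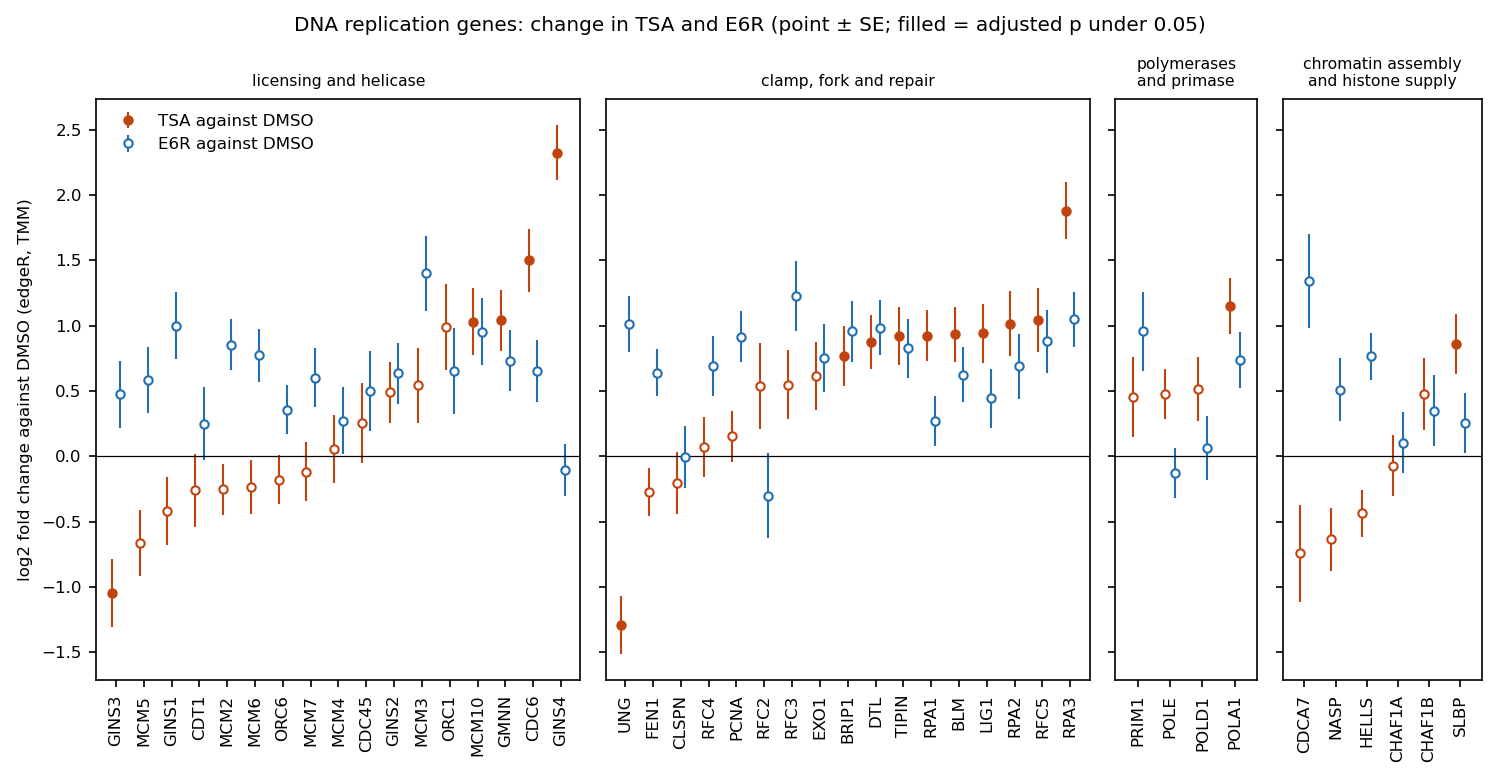
Log2 fold change of each of the 44 genes in TSA (orange) and E6R (blue) against the same 2 DMSO libraries, from edgeR with TMM scaling, by role; bars are the standard error and filled points have an adjusted p under 0.05. TSA points run from -1.29 (UNG) to 2.32 (GINS4), while 40 of the 44 E6R points lie above 0 and none is filled.

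Among the licensing factors, CDC6, which loads the helicase with the origin recognition complex, was at 93.1 and 96.4 CPM in DMSO, 231 and 305 in TSA, and 125 and 173 in E6R. Both TSA libraries stood above all others, and both E6R libraries lay between the other 2 groups. The log2 fold change was 1.5 (SE 0.24, edgeR adjusted p = 0.00424) for TSA against DMSO and -0.85 (SE 0.23, adjusted p = 0.0236) for E6R against TSA. GMNN, the inhibitor of CDT1, read 68.4 and 91.0 in DMSO, 151 and 177 in TSA, and 115 and 150 in E6R, with a log2 fold change of 1.04 (SE 0.23, edgeR adjusted p = 0.0137) under TSA. Its TSA libraries did not overlap either other group, although E6R replicate 2 came close to TSA replicate 1. CDT1 itself, the loading factor that geminin binds, read 140 and 85.3 in DMSO, 96.8 and 90.9 in TSA, and 110 and 157 in E6R, and did not pass the test in any comparison. The ratio of GMNN to CDT1 UMIs, which does not depend on scaling, was 0.489 and 1.07 in DMSO, 1.56 and 1.94 in TSA, and 1.05 and 0.954 in E6R. ORC1, a subunit of the origin recognition complex, was at 9.56 and 10.3 in DMSO, 15.4 and 24.1 in TSA, and 13.1 and 18.2 in E6R, and its TSA difference missed the threshold (log2 fold change 0.99, SE 0.33, edgeR adjusted p = 0.0569).

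For the MCM2-7 helicase, none of the 6 subunits passed the test under TSA against DMSO, and their log2 fold changes ran from -0.66 (MCM5, edgeR adjusted p = 0.0835) to 0.54 (MCM3, adjusted p = 0.185). Against TSA, 5 of the 6 were higher under E6R, by 0.72 (MCM7) to 1.25 (MCM5) on the log2 scale, and MCM4 was not (0.22, SE 0.26, edgeR adjusted p = 0.53). MCM2 was at 88.0 and 68.5 in DMSO, 63.7 and 67.4 in TSA, and 142 and 140 in E6R. Its TSA libraries were below both DMSO libraries by a small margin, and its E6R libraries were above every other library (E6R against TSA log2 1.11, SE 0.20, edgeR adjusted p = 0.00392). MCM3 was at 169 and 96.4 in DMSO, 182 and 204 in TSA, and 393 and 305 in E6R. It showed the largest E6R against DMSO value of the 44 genes, 1.40 (SE 0.29), which did not pass the edgeR test (adjusted p = 0.205). MCM5 read 137 and 100 in DMSO, 77.0 and 72.6 in TSA, and 143 and 211 in E6R, so the 3 groups did not overlap. Per UMI of MCM2-7 together, CDC6 gave 0.0756 and 0.117 in DMSO, 0.241 and 0.286 in TSA, and 0.0791 and 0.102 in E6R: the ratio of the loader to its load was higher in both TSA libraries than in the other 4.

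The 4 subunits of GINS, which form 1 complex of equal parts that activates the helicase, did not move together under TSA: GINS4 rose, GINS3 fell and the other two did not pass the test. GINS4 was at 55.7 and 45.9 CPM in DMSO, 258 and 251 in TSA, and 42.6 and 51.7 in E6R. The TSA libraries stood about 5 times above the others, with a log2 fold change of 2.32 (SE 0.21, edgeR adjusted p = 0.000827) against DMSO, while E6R and DMSO overlapped (-0.11, SE 0.20, adjusted p = 0.818). GINS3 was at 24.2 and 17.8 in DMSO, 9.88 and 10.4 in TSA, and 27.4 and 30.9 in E6R, a fall of 1.05 on the log2 scale under TSA (log2 fold change -1.05, SE 0.26, edgeR adjusted p = 0.0211). GINS1 was at 46.5 and 29.8, 31.3 and 25.7, and 73.2 and 79.3 in the same order, and was higher under E6R than under TSA by 1.42 (SE 0.26, adjusted p = 0.00434). GINS2 did not pass the test in any comparison. As a share of the complex's UMIs, which needs no scaling, GINS4 made up 21.5% and 20.3% in DMSO, 54% and 52.1% in TSA, and 13.9% and 12.6% in E6R. GINS3 made up 9.34% and 7.85% in DMSO, 2.07% and 2.17% in TSA, and 8.94% and 7.51% in E6R. These shares show unequal change among the subunits and do not say which of them stayed level.

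**Figure D2:**
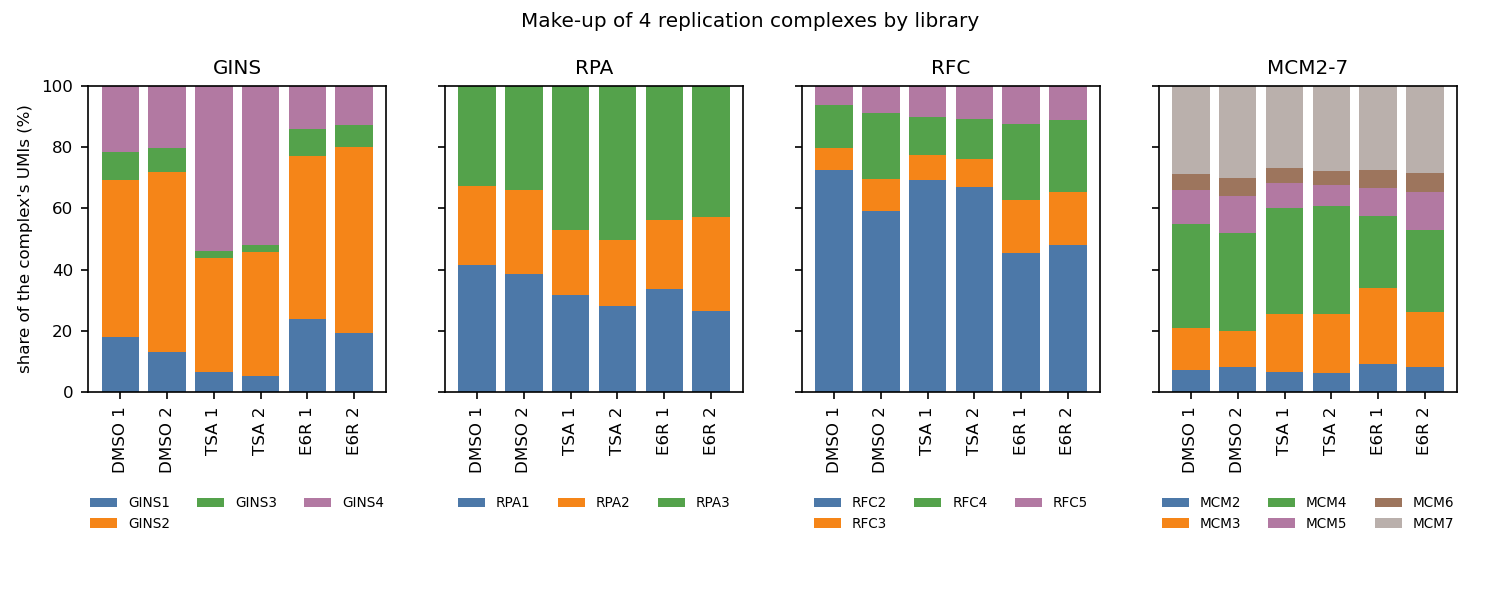
Share of each subunit (percent of the UMIs of its complex, stacked to 100) in each library for GINS, RPA, RFC and MCM2-7. RFC is summed here over RFC2 to RFC5, without RFC1. GINS4 takes 54% and 52.1% of the GINS UMIs in the TSA libraries and at most 21.5% in the other 4. RFC2 takes less of the RFC2 to RFC5 UMIs in the E6R libraries than in the rest.

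At the fork, 9 of 17 genes rose under TSA and 1 fell, against 16.2% of all genes tested called higher and 13.5% lower (20.5% and 18.1% at a mean of 10 CPM or more). With library totals in place of TMM, only RPA1 and RPA3 of the 9 still passed (edgeR adjusted p = 0.0489 and 0.00202). UNG, the gene that fell, passed with either scaling. With TMM, all 3 subunits of RPA, which coats single-stranded DNA, rose: RPA1 by 0.92, RPA2 by 1.01 and RPA3 by 1.88 on the log2 scale. RPA3 was at 42.1 and 52.6 CPM in DMSO, 154 and 195 in TSA, and 96.9 and 99.0 in E6R, with no overlap between any 2 groups (TSA against DMSO SE 0.22, edgeR adjusted p = 0.00145). RPA1 and RPA3 were lower under E6R than under TSA (log2 fold changes -0.65 and -0.83, edgeR adjusted p = 0.0287 and 0.0158). Of the RFC clamp loader, RFC5 rose under TSA (1.04, SE 0.24, edgeR adjusted p = 0.0163). RFC2, RFC3 and RFC4 did not pass the edgeR test, which has no term for the replicate number, in any comparison. RFC1, counted with the other replication genes below and not with the fork genes, also rose under TSA (edgeR adjusted p under 0.05). It was lower under E6R than under TSA by the same test. Its levels were 161 and 196 CPM in DMSO, 335 and 377 in TSA, and 171 and 191 in E6R. Within RFC2 to RFC5, RFC2 made up 72.5% and 59.1% of UMIs in DMSO, 69.2% and 67.1% in TSA, and 45.4% and 48.1% in E6R. RFC3 made up 7.13% and 10.5%, 8.25% and 9.18%, and 17.3% in both E6R libraries. With RFC1 left out of the sum, these are not shares of the whole loader. PCNA, the sliding clamp, read 98.6 and 98.7 in DMSO, 116 and 104 in TSA, and 168 and 204 in E6R, and was higher under E6R than under TSA by 0.76 (SE 0.19, edgeR adjusted p = 0.016). FEN1, which trims Okazaki fragments, was higher under E6R than under TSA by 0.91 (SE 0.18, adjusted p = 0.00615), whereas LIG1, which seals them, rose under TSA by 0.94 (SE 0.23, adjusted p = 0.0183).

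UNG, the uracil-DNA glycosylase that removes uracil from new DNA, was the fork gene that fell under TSA. It was at 25.3 and 23.5 CPM in DMSO, 9.34 and 10.6 in TSA, and 50.2 and 48.2 in E6R. TSA lay below both other groups and E6R above them. Its log2 fold change was -1.29 (SE 0.22, edgeR adjusted p = 0.00539) for TSA against DMSO and 2.30 (SE 0.22, adjusted p = 0.000496) for E6R against TSA, and 1.01 (SE 0.22, adjusted p = 0.205) for E6R against DMSO. In GENCODE 29 the gene spans bases 109097574 to 109110992 of chromosome 12 (GRCh38) on the plus strand. CLSPN, the checkpoint mediator, showed no such pattern, with 154 and 130 in DMSO, 109 and 138 in TSA, and 118 and 164 in E6R.

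**Figure D3:**
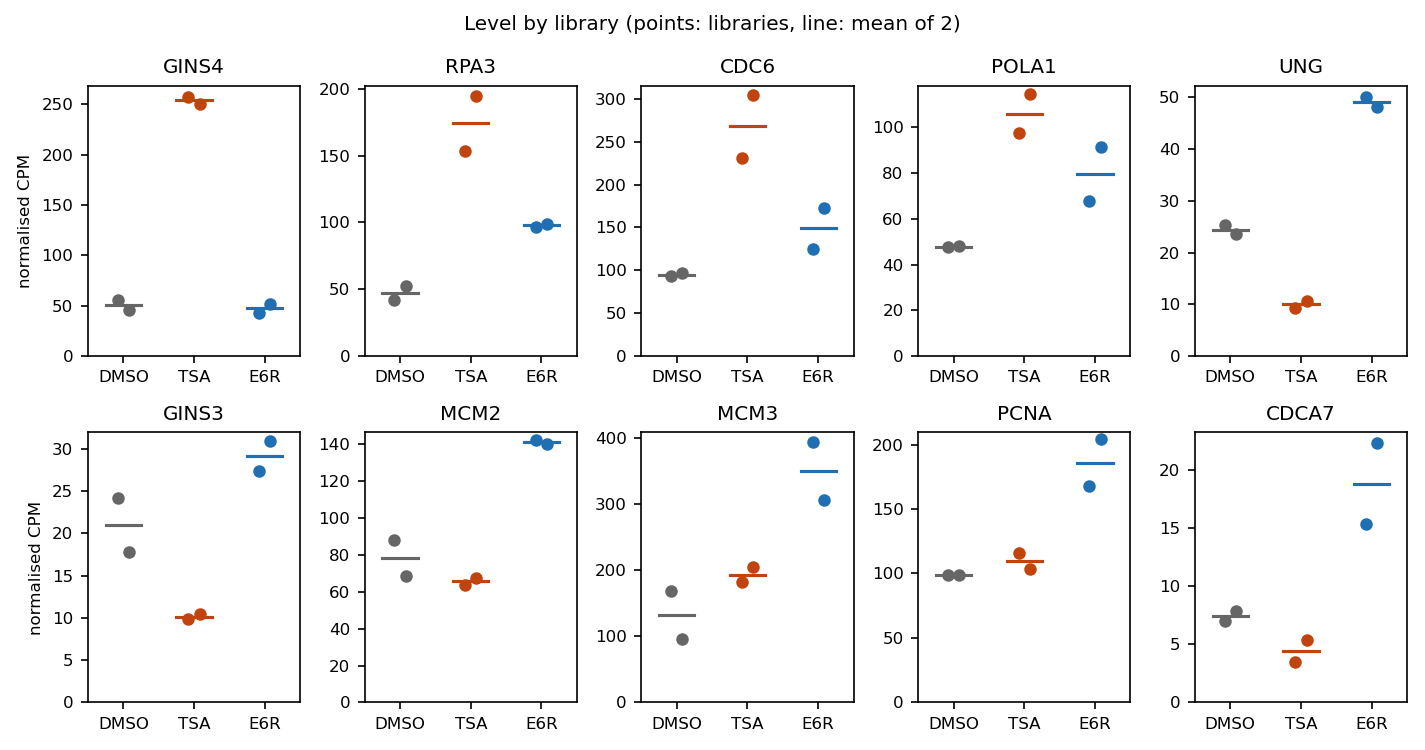
Normalised CPM for 10 of the genes in each library (points) with the mean of the 2 libraries of a group (line), each axis starting at 0. GINS4, RPA3, CDC6 and POLA1 are highest in the TSA libraries, UNG and GINS3 are lowest there, and MCM2, MCM3, PCNA and CDCA7 are highest in the E6R libraries.

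Of the polymerases, POLA1, the catalytic subunit of the polymerase that starts each strand with primase, was at 47.6 and 48.0 CPM in DMSO, 97.4 and 115 in TSA, and 68.0 and 91.4 in E6R. It rose under TSA by 1.15 (SE 0.22, edgeR adjusted p = 0.00748) and none of the other 3 passed against DMSO. POLE, the catalytic subunit of the leading-strand polymerase, was at 51.2 and 48.6 in DMSO, 64.1 and 74.6 in TSA, and 46.4 and 44.7 in E6R, and was lower under E6R than under TSA (log2 fold change -0.61, SE 0.19, edgeR adjusted p = 0.0365). It was also the only one of the 44 genes with both E6R libraries below both DMSO libraries, by a difference that did not pass the test (-0.13, adjusted p = 0.761). Neither PRIM1 nor POLD1 passed in any comparison.

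In the chromatin group, SLBP, which binds the stem-loop of histone mRNAs, rose under TSA by 0.86 (SE 0.23, edgeR adjusted p = 0.026). NASP, a histone H1 and H3-H4 chaperone, was at 242 and 167 CPM in DMSO, 133 and 130 in TSA, and 328 and 253 in E6R, and HELLS, a chromatin remodeller, at 107 and 104, 80.9 and 75.1, and 170 and 189 in the same order. For both, TSA was below DMSO and E6R above it in every library. CDCA7, a partner of HELLS, was the lowest of the 44 by mean, at 7.01 and 7.84 in DMSO, 3.49 and 5.40 in TSA, and 15.4 and 22.3 in E6R. For these 3 genes the TSA against DMSO difference did not pass (edgeR adjusted p = 0.0805, 0.104 and 0.166), and the E6R against TSA difference did (log2 1.15, 1.2 and 2.08, adjusted p = 0.00805, 0.00215 and 0.00372). CHAF1A and CHAF1B, subunits of CAF-1, did not pass in any comparison. CHAF1A was at 173 and 150, 136 and 171, and 144 and 202.

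Under E6R the genes leaned one way, with no call. None of the 44 passed the edgeR test against DMSO, where 0% of all genes were called higher and 0% lower. Without adjustment, 27 of the 44 had p under 0.05 and were higher and 0 were lower, against 8.04% and 9.34% of all genes tested (12.6% and 3.76% at a mean of 10 CPM or more). The 2 E6R libraries were both above the 2 DMSO libraries for 34 genes (77.3%), against 24.6% of all genes, and both below for 1 gene, POLE (2.27%, against 22.7%). Of the genes that average at least 10 CPM, 33.9% were above and 12.8% below. The median log2 fold change of the 44 was 0.65, with 40 positive values, against 0.03 for all genes and 0.17 for genes of 10 CPM or more. By role it was 0.63 for licensing and helicase, 0.75 for clamp, fork and repair, 0.40 for polymerases and 0.43 for chromatin genes. With library totals in place of TMM, the median of all genes moved to -0.10 and that of the 44 to 0.52. The 4 medians over single pairs of an E6R and a DMSO library ran from 0.46 to 0.88, and the E6R libraries differed from each other by a median of 0.37, replicate 2 being higher. DESeq2, run as an alternative, called 10 of the 44 higher than DMSO (DTL, MCM2, MCM3, RPA3, HELLS, UNG, RFC3, BRIP1, PCNA and GINS1) and 0 lower, against 1.48% and 0.659% of all genes with an adjusted p. The low share of mitochondrial UMIs moves with E6R in the same libraries, and its part in the result was not tested.

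The direct contrast of the compounds called 13 genes higher and 5 lower under E6R than under TSA (edgeR adjusted p under 0.05), against 18.7% and 19.5% of all genes and 26.0% and 19.6% of genes at a mean of 10 CPM or more. The members' shares, 29.5% and 11.4%, are near that background in total. The 13 were MCM2, MCM3, MCM5, MCM6, MCM7, GINS1, GINS3, PCNA, FEN1, UNG, NASP, HELLS and CDCA7, and the 5 were CDC6, GINS4, RPA1, RPA3 and POLE. With library totals the split was 16 higher and 2 lower. MCM2, GINS3, GINS4, UNG, HELLS and CDCA7 passed in every fit that left out 1 library. Fewer genes were called without either TSA library, and the share of all genes called in those fits is not given here. E6R libraries did not overlap TSA libraries for 17 genes on the higher side (38.6%, against 33.7% of all genes and 41.6% of genes at 10 CPM or more) and 12 on the lower side (27.3%, against 38.9% and 35.0%). For TSA against DMSO these counts were 27 above (61.4%, against 36.7% and 41.2%) and 9 below (20.5%, against 34.6% and 34.9%). The 3 comparisons share libraries, so their values are given side by side and not as separate evidence.

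Of 42 other replication genes (further origin, polymerase, clamp loader, kinase and chromatin factors), 10 rose and 4 fell under TSA (23.8% and 9.52%, against 16.2% and 13.5% of all genes tested, so the share that rose is near the background), and 0 passed for E6R against DMSO, where 14 were higher and 1 lower at an unadjusted edgeR p under 0.05 (33.3% and 2.38%, against 8.04% and 9.34% of all genes). For E6R against DMSO, DESeq2 called 3 of the 42 higher (WDHD1, CDC7, RBBP4) and 0 lower, against 1.48% and 0.659% of all genes with an adjusted p. CHTF18, part of an alternative clamp loader, was at 38.0 and 34.6 CPM in DMSO, 186 and 196 in TSA, and 32.8 and 38.5 in E6R. MCMBP, which binds MCM subunits, was at 39.7 and 45.3 in DMSO, near 20 in both TSA libraries, and in E6R at 64.8 and 67.2. Their median log2 fold change was 0.02 under TSA and 0.46 under E6R. Among 6 genes of nucleotide supply, TYMS, the thymidylate synthase, was at 71.4 and 72.7 in DMSO, 9.88 and 9.66 in TSA, and 115 and 123 in E6R, and TK1, the thymidine kinase of the salvage route, at 154 and 125, 440 and 376, and 136 and 192. TYMS fell and TK1 rose under TSA (edgeR log2 fold changes -2.88 and 1.55, adjusted p = 0.000489 and 0.00392). The 22 mitotic genes had 4 rises and 4 falls under TSA (18.2% each). Over all genes tested 16.2% rose and 13.5% fell, or 20.5% and 18.1% at 10 CPM or more, so both are near the background. The share of all UMIs from the mitotic genes was 0.499% and 0.548% in DMSO, 0.416% and 0.439% in TSA, and 0.475% and 0.52% in E6R.

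Summed over the 44 genes, replication RNA took 0.423% and 0.336% of UMIs in DMSO, 0.389% and 0.408% in TSA, and 0.465% and 0.559% in E6R. By this unscaled share the E6R libraries were above all others, and TSA lay inside the DMSO range. After TMM scaling the sum was 3781 and 3085 CPM in DMSO, 4225 and 4730 in TSA, and 4633 and 5504 in E6R, so that both TSA libraries were above both DMSO libraries and TSA replicate 2 was above E6R replicate 1. With 2 libraries against 2, the exact permutation test cannot go below p = 0.333, so no p is given for such sums. In barcodes with fewer than 500 genes, which can hold free RNA and broken cells, the share was 0.368% and 0.324% in DMSO, 0.325% and 0.347% in TSA, and 0.459% and 0.530% in E6R. In each library this was below the share in its cells. For GINS4 the level in small barcodes, here as CPM without TMM scaling, was 63.5 and 44.8 in DMSO, 183 and 173 in TSA, and 52.8 and 59.0 in E6R, against 62.3 and 50.1, 237 and 216, and 42.7 and 52.5 in cells on the same scale. Other genes differed more: BLM was at 35.5 and 27.9 in DMSO and 29.7 and 32.5 in TSA in small barcodes, which overlap, and at 27.6 and 24.4 in DMSO and 38.4 and 41.5 in TSA in cells.

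Per cell, after thinning each cell to 1000 UMIs (shallower cells left out: 674 and 1450 in DMSO replicates 1 and 2, 615 and 503 in TSA, 692 and 1718 in E6R), the mean number of replication UMIs was 3.89 and 3.40 in DMSO, 3.60 and 3.97 in TSA, and 4.52 and 5.34 in E6R. On this measure, which is not TMM scaled, both E6R libraries stood above the other 4. At least 1 such UMI was found in 91.8% and 93.8% of thinned cells in DMSO, 92.4% and 97.2% in TSA, and 94.9% and 97.6% in E6R (94.7%, 94.2%, 96.1%, 98.8%, 97.9% and 98.6% unthinned, in that order). Cells with 10 or more were 4.72% and 0.951% in DMSO, 1.89% and 1.61% in TSA, and 5.55% and 8.39% in E6R. No group of cells lacking these genes was set apart here, so the share in small barcodes is given for comparison. Such barcodes can also hold broken cells, so that share is not a clean background. For single genes the shares were small: GINS4 was seen in 5.39% and 4.82% of thinned cells in DMSO, 18.8% and 17.3% in TSA, and 3.64% and 5.30% in E6R, and UNG in 2.11% and 2.5%, 0.594% and 0.789%, and 4.50% and 4.04%.

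**Figure D4:**
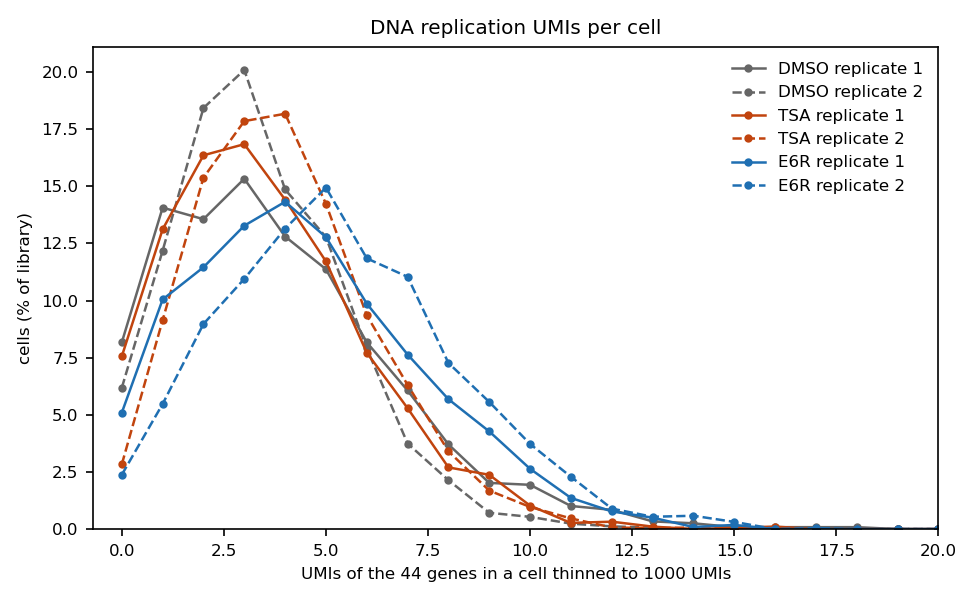
Percent of cells in each library (vertical axis) by the number of UMIs from the 44 genes in a cell thinned to 1000 UMIs (horizontal axis), with replicate 1 as a solid and replicate 2 as a dashed line. The E6R curves (blue) are shifted to the right, with 5.55% and 8.39% of cells at 10 or more UMIs. DMSO replicate 1 has the largest variance over the mean (2.09).

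Replication UMIs were spread over cells more widely than counting alone gives: the variance over the mean per thinned cell was 2.09 and 1.29 in DMSO, 1.67 and 1.22 in TSA, and 1.78 and 1.54 in E6R, and was higher in replicate 1 of each group. Thinned cells with a mitotic UMI held more replication UMIs than cells without one in each library, 4.25 against 2.00 in DMSO replicate 1, 3.43 against 1.80 in DMSO replicate 2, 3.88 against 1.85 and 4.01 against 3.07 in TSA, and 4.75 against 2.45 and 5.50 against 3.05 in E6R. Only 35 thinned cells of DMSO replicate 2 lacked a mitotic UMI. Between cells above the library's median of mitotic UMIs and the rest, a split chosen after seeing the data, the log2 ratio was smaller, 0.09 (DMSO replicate 2) to 0.60 (TSA replicate 1).

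In GENCODE 29, 25 of the 44 genes overlap another annotated gene, 22 of them one on the opposite strand (RPA3 with UMAD1, RFC5 with WSB2 and GINS4 with unnamed transcripts among them). Whether counting used the strand is not given in the sources used here, so reads of such pairs cannot be told apart.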

How the data were processed

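The authors deposited UMI count matrices of single-cell libraries; per the submitters' processing notes they were made with STARsolo 2.7.9a on GRCh38, and settings on strand or multi-mapping reads are not given in the sources used here. From these deposited counts, cells with at least 500 genes and at most 20% MT- UMIs were kept, without a doublet caller, and raw UMIs were summed per library. The sums were tested with edgeR 4.0.16 (TMM, filterByExpr, quasi-likelihood, group only, all 6 libraries, Benjamini-Hochberg over 16763 genes) after checks on simulated data. The common biological coefficient of variation was 0.288. DESeq2 1.42.0, other scalings and filters, a replicate block, and each library left out were alternatives. Gene spans came from GENCODE 29 and promoters from RefSeq. Named genes were 13 picked by role plus, by rule, the 2 with the highest mean in each role and the 3 highest and 3 lowest fold changes of each comparison; other genes were named because they were called, belong to a complex described or sit at the edge of a count. The members and lists were chosen with earlier results of these data known.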

Additional observations from a re-analysis of the deposited data

Results flagged for a closer look

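Barcodes with fewer than 500 genes were left out of every test. The 44 replication genes took 0.459% of their UMIs in E6R replicate 1 and 0.530% in E6R replicate 2, above the higher of the 2 DMSO libraries (0.368%), which is why they are listed here. By this share the same libraries were also highest in the kept cells.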

How the results depend on the processing

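For TSA against DMSO, 17 replication genes were called with TMM, 17 with RLE size factors, 19 with DESeq2 and 19 with the replicate block, but 11 with library totals, where the median of the 44 was 0.17 instead of 0.48 (0.33 with cells thinned to 1000 UMIs). Leaving out 1 library gave 4 to 20 calls and medians of 0.31 (without DMSO replicate 2) to 0.58. For E6R against DMSO, 0 were called by edgeR in the main fit and with the replicate block, 10 by DESeq2 and 23 without the low-count filter. The share of all genes called without that filter is not given here, so the 23 were not set against a background. The E6R against DMSO median was 0.95 without E6R replicate 1 (0.50 to 0.95 over the 6 fits). For E6R against TSA, 18 were called, and 23 with the replicate block. Over all genes tested, that block called 21.7% higher and 23.4% lower, against 18.7% and 19.5% in the main fit. With 1 library left out, the median of the 44 ran from -0.06, without E6R replicate 2, to 0.48. Cells without a mitotic UMI were too few to test more than 18 members. In them, 0 were called in TSA against DMSO and in E6R against TSA, and the E6R against DMSO median was 0.44. Between groups, 9, 7 and 9 did not overlap for TSA against DMSO, E6R against DMSO and E6R against TSA. The shares over all genes tested in these cells are not given here, so these counts were not set against a background. The difference in the percent of cells with a replication UMI rose from 3.44 to 9.38 points (E6R minus DMSO) and from 1.46 to 6.63 points (E6R minus TSA) with thinning to 500 UMIs. The mean log2 ratio between cells with and without a mitotic UMI rose from 0.88 to 1.34 with thinning to 2000 UMIs. The cause was not tested, save where fewer samples or genes entered a fit. Without barcodes found in another library, chosen after seeing the data, 16, 0 and 16 genes were called. Of 1353 values for the 23 named genes under the alternatives, 0 reversed in a called gene. Only genes called in the main fit or in that alternative could count as reversed. The 1353 include 451 values for E6R against DMSO, where the main fit called 0, so this says little about uncalled genes. With library totals the sign of the TSA against DMSO value flipped for MCM4, CDC45, PCNA and RFC4, of the E6R against DMSO value for POLD1 and CHAF1A, and of the E6R against TSA value for MCM10, RFC5, TIPIN and CHAF1B, none of them called in that comparison, and the E6R against TSA median was 0.36 instead of 0.18. Same-numbered libraries deviated together (correlation 0.242, 0.564 and 0.166 for DMSO with TSA, DMSO with E6R and TSA with E6R), but with 2 numbers they share only a number. The replicate block added ORC1 (higher) and NASP (lower) for TSA against DMSO, and ORC6, RFC3 and RFC4 (higher) and RFC2 and SLBP (lower) for E6R against TSA, where DESeq2 also called ORC6, RFC3 and RFC4. The DMSO libraries hold the fewest UMIs and limit the precision of low genes such as CDCA7.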
